A study of Arabidopsis with 6 samples.

Results

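The genes described here encode the proteins L3 to L19 of the large (60S) subunit of the cytosolic ribosome of Arabidopsis thaliana. They were taken from a list of 56 loci for 20 proteins, counting L7a, L10a, L13a and L18a as proteins of their own. A locus entered when the probe table named it with a probe set of its own, which held for 35 of the 56 loci, out of 13286 loci on the array. Another 4 loci, AT1G74050 and AT1G74060 of L6 and AT1G33120 and PGY2 (AT1G33140) of L9, were covered only by probe sets shared between paralogs and were not used. The remaining 17 loci have no entry in the probe table used here, so L3, L5, L10 and L11 are not analysed and 16 of the 20 proteins have at least 1 measured gene. Each of the 35 loci had 1 probe set.

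The study compared the apum23 mutant with its wild type, accession Col-3, on Affymetrix ATH1 arrays, with 3 arrays per genotype. RNA was prepared from above-ground tissue after 21 days on soil in short days of 8 h light. The mutant is named apum23-1 in the design and in the growth protocol, whereas the descriptions of mutant replicates 2 and 3 read apum23-2 and apum23-3. The labels do not say whether those are alleles or sample numbers, and the 3 arrays were kept as 1 group. APUM23 itself is not named in the probe table, so the genotype labels were not checked on its transcript.

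Plant cytosolic ribosomal proteins are encoded by small gene families, whose paralogs make nearly the same protein and can each supply a ribosome. The large subunit carries the peptidyl transferase centre, the tunnel through which the new chain leaves, and 2 mobile stalks that handle tRNA exit and the binding of translation factors. Its proteins are imported into the nucleus and join the pre-ribosomal RNA in the nucleolus while that RNA is being cut and trimmed. APUM23, a Pumilio-type RNA-binding protein found in the nucleolus, acts in this processing. The roles given below for single proteins are known mainly from ribosome structures of yeast and other species, and the assignment of loci to proteins follows the usual Arabidopsis nomenclature.

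Nearly all of these genes were higher in apum23 than in wild type, and 13 of the 35 passed the test. The log2 fold change was above 0 for 35 of 35 genes as deposited, where 65.3% of all probe sets were above 0, though AT2G47570 was level between the genotypes to 2 decimals. It was above 0 for 34 genes after quantile normalization (46.6% of all probe sets) and for 33 after centring each array on its median (34.6%), and the exceptions were not called. The median log2 fold change, apum23 minus wild type, was 0.60, with a range of 0 to 1.22, and the median over all 22746 probe sets was 0.08. Of the 35 genes, 13 rose, 0 fell and 22 did not pass limma's test at an adjusted p under 0.05, a share of 37.1% that rose. Of all probe sets 5.31% were called higher and 1.38% lower. At an unadjusted p under 0.05, 26 were higher and 0 were lower, where 11.2% of all probe sets were higher and 3.85% lower. For 26 genes all 3 apum23 arrays lay above all 3 wild-type arrays, a pattern seen in 11.0% of all probe sets. In 4 genes the log2 fold change was 1 or more (AT1G80750 of L7, AT5G22440 of L10a, AT2G20450 of L14 and AT3G16780 of L19), that is 11.4% of the 35 genes, where 1.74% of all probe sets reached it. Since the samples are whole aerial parts, more cells with active ribosome synthesis and more RNA per cell cannot be told apart.

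The deposited arrays do not share 1 scale, with medians of 5.7 to 6.1 in apum23 and 5.34 to 5.94 in wild type. The limma fit of these values gave every probe set the same standard error of 0.22 on the log2 scale, so that no difference under 0.66 was called. After quantile normalization, which gives the 6 arrays 1 distribution, the median standard error was 0.11, and 26 of the 35 genes rose, 0 fell and 9 did not pass, where 9.69% of all probe sets were called higher and 10.0% lower. All 13 genes called on the deposited values were among those 26. The median of the 35 genes was then 0.49, where that of all probe sets was -0.02. Below, "rose" refers to the deposited values unless quantile normalization is named, and the fit, limma with Benjamini-Hochberg adjustment, is the same throughout.

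Measured against their own array, the 35 genes stood higher on every apum23 array than on any wild-type array. The median of the 35 genes stood 5.71, 5.75 and 5.64 above the array median in apum23 replicates 1 to 3, against 5.31, 5.21 and 5.23 in wild type. This measure removes any shift that a whole array shares.

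**Figure D1:**
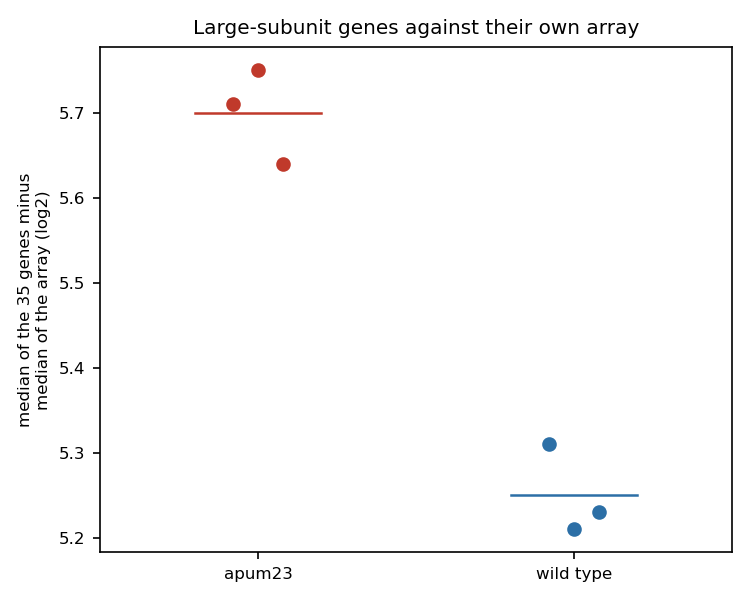
Median log2 intensity of the 35 large-subunit genes minus the median of the same array (vertical axis, log2), for the 3 apum23 arrays on the left and the 3 wild-type arrays on the right. Horizontal lines are group means, and the lowest apum23 array, at 5.64, lies above the highest wild-type array, at 5.31.

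On wild-type replicate 1 the spiked hybridization controls were dim, at a mean of 5.36 where the other 5 arrays were at 9.42 to 9.74. Without this array the log2 fold changes of 9 genes moved by more than 1.5 times, all of them downward, and each is given below with its gene. The 3′ minus 5′ difference of actin, a sign of RNA quality, was 1.34 to 1.5 in apum23 and 1.51 to 1.64 in wild type, and its part in the results was not tested. On the older actin probe sets the ranges overlapped, at 3.70 to 4.01 and 3.69 to 4.06. Leaf tissue was represented by RCA, the activase of Rubisco, at a mean of 13.75 in both genotypes, and by PRK of the Calvin cycle at 12.30 in apum23 and 12.71 in wild type, 2 measured of 10 markers, with 0 calls. Their summed linear intensity was 16430 to 21020 in apum23 and 18650 to 21580 in wild type. PRK was lower after quantile normalization (-0.44, limma adjusted p = 0.0172), while the root hair (2 of 3 measured), shoot meristem (1 of 3) and stomatal lineage (3 of 4) markers had 0 calls on either scale. EXPA7 and EXPA18 (root hair), CLV3 (meristem) and MUTE (stomatal) had group means of 3.34 to 4.23. These lie in or near the arrays' lower quartiles (3.41 to 3.84), where a missing call says little about tissue. SPCH and FMA (stomatal) were at 6.08 to 6.41. At an unadjusted p under 0.05 none of these 8 markers was called on the deposited scale. None of 10 dividing-cell markers is named in the probe table, so the share of dividing tissue was not tested.

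**Figure D2:**
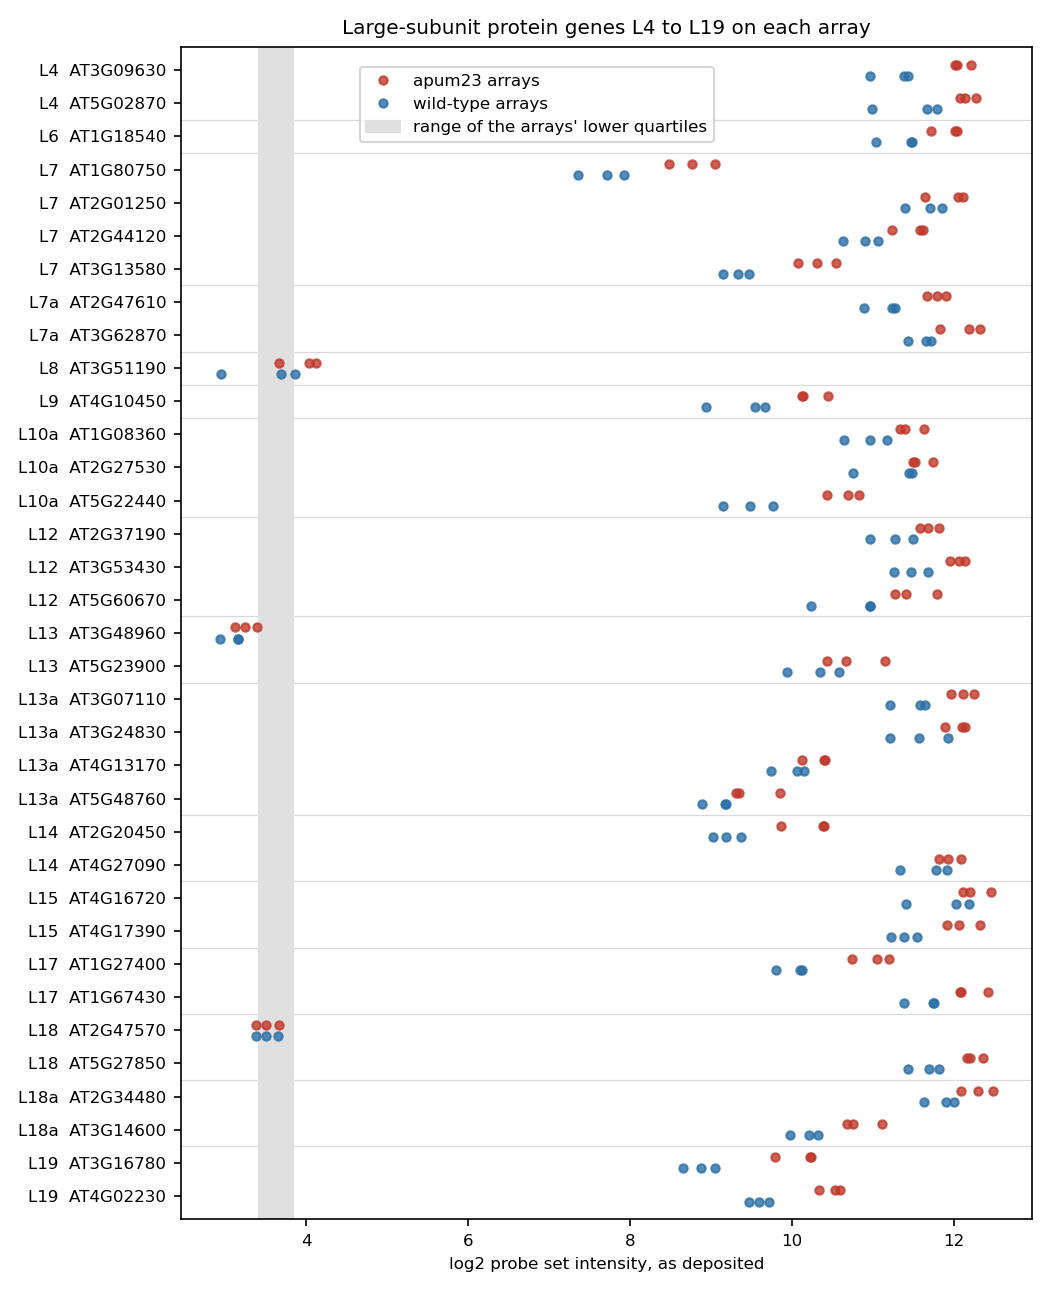
Log2 probe set intensity (horizontal axis, as deposited) of the 35 genes, grouped by protein, with 3 apum23 arrays above 3 wild-type arrays in each row. The grey band spans the lower quartiles of the 6 arrays (3.41 to 3.84), and AT3G51190, AT3G48960 and AT2G47570 lie in or near it while the other 32 genes lie well to its right.

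Proteins L4 and L17 reach from the solvent side into the exit tunnel and line its narrowest part. Both L4 genes rose. AT3G09630 had log2 intensities of 12.02, 12.04 and 12.22 in apum23, against 10.97, 11.39 and 11.44 in wild type, a log2 fold change of 0.82 (adjusted p = 0.00659). Its paralog AT5G02870 had 12.08, 12.14 and 12.27 in apum23, against 10.99, 11.67 and 11.80 in wild type (0.67, adjusted p = 0.0423). The ranges of the genotypes were apart for both genes. Without wild-type replicate 1, the lowest array of the L4 genes, AT5G02870 was at 0.43 and not called, and AT3G09630 lost its call only without apum23 replicate 3 (0.76, adjusted p = 0.061). AT5G02870 also lost its call without any of the apum23 replicates or wild-type replicate 2, at 0.62 to 0.77.

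Of the L17 genes, AT1G27400 rose, and AT1G67430 passed after quantile normalization or with the replicate number as a block (adjusted p = 0.0244). AT1G27400 was at 10.74, 11.05 and 11.20 in apum23 and at 9.80, 10.13 and 10.10 in wild type, a log2 fold change of 0.98 (adjusted p = 0.000551). AT1G67430 was at 12.09, 12.08 and 12.43 in apum23 and at 11.39, 11.75 and 11.76 in wild type, a log2 fold change of 0.57 (adjusted p = 0.123, and 0.00759 after quantile normalization). All apum23 arrays were above all wild-type arrays for both paralogs. The within-array difference between them, AT1G27400 minus AT1G67430, was -1.35, -1.03 and -1.23 in apum23, against -1.59, -1.62 and -1.65 in wild type, so the 2 responses differed by 0.42 on the log2 scale.

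L10a is the protein of the mobile stalk beside the exit site for spent tRNA, and its 3 genes had log2 fold changes of 0.36 to 1.19. AT5G22440 was at 10.43, 10.70 and 10.83 in apum23, against 9.15, 9.48 and 9.77 in wild type, and rose by a log2 fold change of 1.19, or 2.27-fold (adjusted p = 1.09e-05). PGY1 (AT2G27530), known from the piggyback leaf-patterning mutants, was at 11.52, 11.50 and 11.74 in apum23, against 10.75, 11.48 and 11.45 in wild type. Its log2 fold change was 0.36 (adjusted p = 0.52, and 0.117 after quantile normalization), it passed on neither scale, and it was 0.12 without wild-type replicate 1. AT1G08360 lay between, at 0.53 (adjusted p = 0.17), and passed after quantile normalization (0.49, adjusted p = 0.0031).

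L12 sits at the base of the other stalk, where elongation factors bind. AT5G60670 rose, with 11.41, 11.28 and 11.80 in apum23, against 10.24, 10.97 and 10.97 in wild type (0.77, adjusted p = 0.0141). AT3G53430 (0.59) and AT2G37190 (0.45) did not pass on the deposited values and did after quantile normalization, with adjusted p = 0.00436 and 0.0123. For all 3 genes the apum23 arrays lay above the wild-type arrays. AT5G60670 lost its call without apum23 replicate 1 (0.81), apum23 replicate 3 (0.62) or wild-type replicate 1 (0.52), and AT3G53430 was called without wild-type replicate 3 (0.70, adjusted p = 0.0494).

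L9 lies near the same factor-binding region. Its only gene with a probe set of its own, AT4G10450, rose to 10.14, 10.12 and 10.45 in apum23, against 8.94, 9.55 and 9.67 in wild type. The log2 fold change was 0.85 (adjusted p = 0.00465), and it was 0.74 and not called without apum23 replicate 3 (adjusted p = 0.0722). L8 binds next to the peptidyl transferase centre, and AT3G51190 is its only measured gene. It was at 3.66, 4.03 and 4.12 in apum23 and at 3.86, 3.69 and 2.94 in wild type, overlapping and close to the arrays' lower quartiles, with a log2 fold change of 0.44 (adjusted p = 0.333). Single arrays moved this value widely: it was at 0.16 without wild-type replicate 3 (adjusted p = 0.937) and at 0.62, just called, without wild-type replicate 1 (adjusted p = 0.049).

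L19 forms a bridge to the small subunit, and both of its measured genes rose, including the gene with the largest change of the 35. AT3G16780 was at 9.79, 10.24 and 10.22 in apum23, against 8.66, 8.88 and 9.05 in wild type, a log2 fold change of 1.22, or 2.33-fold (adjusted p = 5.06e-06). AT4G02230 was at 10.33, 10.53 and 10.59 in apum23, against 9.47, 9.59 and 9.72 in wild type (0.89, adjusted p = 0.00242). For each gene the lowest apum23 array exceeded the highest wild-type array by more than the whole wild-type range. Both stayed called with any single array left out, at 1.12 to 1.37 and 0.83 to 0.97.

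L7 had all 4 of its genes measured, and they spread from no call to some of the largest rises. AT1G80750 rose, with 8.76, 8.48 and 9.05 in apum23, against 7.36, 7.72 and 7.93 in wild type (1.10, adjusted p = 6.2e-05). AT3G13580 rose as well, with 10.07, 10.31 and 10.54 in apum23, against 9.15, 9.33 and 9.47 in wild type (0.99, adjusted p = 0.000496). AT2G44120 was at 11.24, 11.59 and 11.62 in apum23, against 10.63, 10.91 and 11.06 in wild type. These ranges were apart, but its 0.61 did not pass (adjusted p = 0.0811). It passed after quantile normalization (adjusted p = 0.00186), with the replicate number as a block (adjusted p = 0.0128) and without wild-type replicate 3 (0.71). AT2G01250 was at 11.64, 12.05 and 12.12 in apum23, against 11.40, 11.71 and 11.86 in wild type. Its ranges overlapped, and its log2 fold change of 0.28 did not pass on either scale (adjusted p = 0.707 and 0.281), and was 0.16 without wild-type replicate 1.

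L14 and L15 are structural proteins of the subunit, and each had 1 gene that rose and 1 that did not pass on either scale. AT2G20450 of L14 was at 9.86, 10.40 and 10.38 in apum23, against 9.02, 9.19 and 9.37 in wild type (1.02, adjusted p = 0.000286). Its paralog AT4G27090 was at 11.82, 11.93 and 12.09 in apum23, against 11.34, 11.78 and 11.92 in wild type, where the ranges overlapped (0.27, adjusted p = 0.738, and 0.10 without wild-type replicate 1). Of the L15 genes, AT4G17390 rose, with 11.92, 12.07 and 12.33 in apum23 against 11.23, 11.39 and 11.55 in wild type (0.72, adjusted p = 0.0263). That call was lost without apum23 replicate 2 (0.74), apum23 replicate 3 (0.61) or wild-type replicate 2 (0.72). AT4G16720 was at 12.20, 12.11 and 12.46 in apum23, against 11.41, 12.03 and 12.19 in wild type (0.38, adjusted p = 0.47, and 0.14 without wild-type replicate 1).

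For L18a, AT3G14600 rose, with 10.68, 10.75 and 11.12 in apum23, against 9.98, 10.21 and 10.32 in wild type (0.68, adjusted p = 0.0415). It was near the threshold and was called with only 1 of the 6 arrays left out, wild-type replicate 3, with values of 0.54 to 0.76. AT2G34480 (0.45) passed after quantile normalization, with an adjusted p = 0.0247. Without wild-type replicate 1 on that scale it was at 0.33 and not called (adjusted p = 0.0605).

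Proteins L6, L7a, L13, L13a and L18 had no gene called on the deposited values. L6 was represented by AT1G18540 (0.60), and L7a by AT2G47610 (0.65, adjusted p = 0.0523) and AT3G62870 (0.50). For these 3 genes the ranges were apart, and all 3 passed after quantile normalization, with adjusted p = 0.00474, 0.00112 and 0.0223. AT2G47610 was called without wild-type replicate 3 (0.73). L13a, whose mammalian counterpart also works outside the ribosome in translational silencing, had 4 measured genes at 0.33 to 0.63. AT3G07110 (0.63, called without wild-type replicate 3 at 0.71) and AT5G48760 (0.42) passed after quantile normalization, while AT3G24830 (0.48) and AT4G13170 (0.33) passed on neither scale. Without wild-type replicate 1 these last genes were at 0.30 and 0.21.

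L13 and L18 each had 1 gene well above and 1 gene at the floor of the arrays. AT5G27850 of L18 was at 12.16, 12.20 and 12.36 in apum23, against 11.43, 11.69 and 11.82 in wild type (0.60, adjusted p = 0.0954, and 0.00199 after quantile normalization). Its paralog AT2G47570 was at 3.38, 3.66 and 3.5 in apum23, against 3.38, 3.65 and 3.5 in wild type, within the lower quartiles with a log2 fold change of 0 (-0.07 without wild-type replicate 1). AT5G23900 of L13 was at 0.46 (0.29 without wild-type replicate 1) and passed after quantile normalization (adjusted p = 0.0357), though not with wild-type replicate 1 removed as well (0.42, adjusted p = 0.0877). AT3G48960 was at 3.12 to 3.39 in apum23 and 2.93 to 3.16 in wild type, below the lower quartiles, where a change has an uncertain size.

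**Figure D3:**
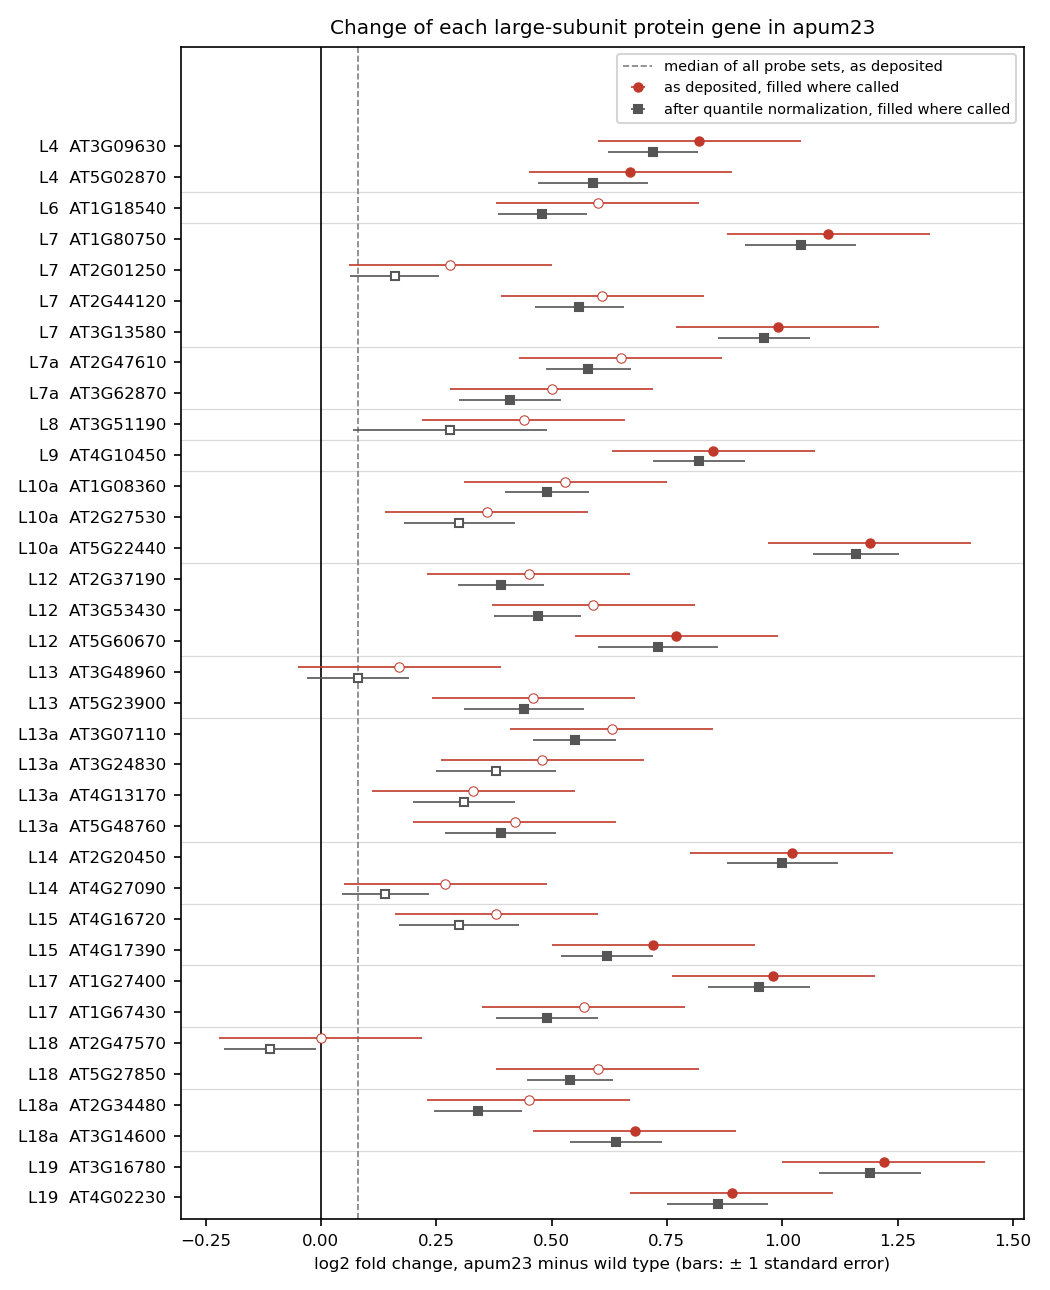
Log2 fold change, apum23 minus wild type, of the 35 genes (horizontal axis) with ± 1 standard error from limma, 3 arrays per genotype. Circles are the deposited values and squares the quantile-normalized ones, filled where called: 13 circles and 26 squares are filled, and AT2G47570 is the only gene whose square lies below 0.

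To ask whether paralogs of 1 protein responded alike, the log2 difference between 2 paralogs was taken within each array, where a shift of the whole array cancels, and compared between genotypes. The 13 proteins with at least 2 measured genes gave 27 pairs, each written with the stronger responder first, so the sign of the difference follows from the order. In 14 of the 27 pairs (51.9%) the 3 apum23 differences did not overlap the 3 wild-type ones, where 30.7% of all pairs of loci on the array showed this. In 6 pairs (22.2%) the responses were also 1.5-fold or more apart, where 15.1% of all pairs were. Pairs with AT2G47570 or AT3G48960 rest on a gene in or below the lower quartiles, and leaving them out, a choice made after seeing the data, left 25 pairs, 13 apart (52.0%) and 5 past 1.5-fold (20.0%). Among all pairs of loci whose means lie above 3.84 in both genotypes, those shares were 44.1% and 22.6%, so the share of paralog pairs past 1.5-fold was near that of loci in general. An exact permutation test of 3 against 3 arrays cannot go below p = 0.1, so no single pair can pass a threshold of 0.05, and all 14 pairs stand at that smallest value (two-sided). Probe sequences were not used here, so cross-hybridization between near-identical paralogs was not tested.

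The widest pair on the deposited values was in L10a, by 0.01 over a pair of L7, which was the wider after quantile normalization (0.87 against 0.86). AT5G22440 minus PGY1 (AT2G27530) was -1.09, -0.80 and -0.91 in apum23, against -1.60, -2.01 and -1.68 in wild type, so that the responses differed by 0.83 on the log2 scale, or 1.78-fold (exact permutation p = 0.1). AT5G22440 minus AT1G08360 was -0.91, -0.70 and -0.80 in apum23, against -1.49, -1.49 and -1.39 in wild type (0.66, 1.57-fold). AT1G08360 and PGY1 differed by 0.17, and their ranges overlapped (exact permutation p = 0.2).

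In L7, AT2G01250 was the weaker partner of each pair it entered. AT1G80750 minus AT2G01250 was -2.88, -3.56 and -3.07 in apum23, against -4.05, -3.99 and -3.93 in wild type (0.82). AT3G13580 minus AT2G01250 was -1.57, -1.74 and -1.59 in apum23, against -2.26, -2.38 and -2.39 in wild type (0.71). AT2G44120 minus AT2G01250 differed by less, 0.33, with differences of -0.41 to -0.50 in apum23 and -0.77 to -0.79 in wild type that did not overlap. The 2 strong responders, AT1G80750 and AT3G13580, differed by 0.11 with overlapping ranges (exact permutation p = 0.5).

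The L14 pair was the other measured pair past 1.5-fold. AT2G20450 minus AT4G27090 was -1.96, -1.53 and -1.71 in apum23, against -2.32, -2.59 and -2.55 in wild type (0.75, 1.69-fold). The L18 pair also passed that limit in number, but its weaker partner, AT2G47570, is at the floor of the arrays, where its response could not be measured, and no size is given for it. In every measured pair past 1.5-fold, of L7, L10a and L14, the stronger responder had the dimmer probe set. Their mean wild-type differences were -1.46 to -3.99. A within-array difference does not cancel a smaller response of brighter probe sets, and its part in these pairs was not tested.

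Smaller differences with ranges apart were in L17 (0.42), L19 (0.33), L18a (0.23), 1 of 3 pairs of L12 (0.14), 1 of 6 pairs of L13a (0.30) and the other L7 pairs with AT2G44120. Each stands at the smallest exact permutation p, 0.1. Ranges were apart in 44.1% of all pairs of loci above the lower quartiles, so these pairs are described and not shown to be unequal. In L4 (0.15), L7a (0.15), L13 (0.29) and L15 (0.34) the ranges overlapped, with exact permutation p = 0.2 to 0.5. Leaving out an array moved the number of pairs past 1.5-fold to between 5 and 7, and after quantile normalization the same 6 pairs were past it.

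**Figure D4:**
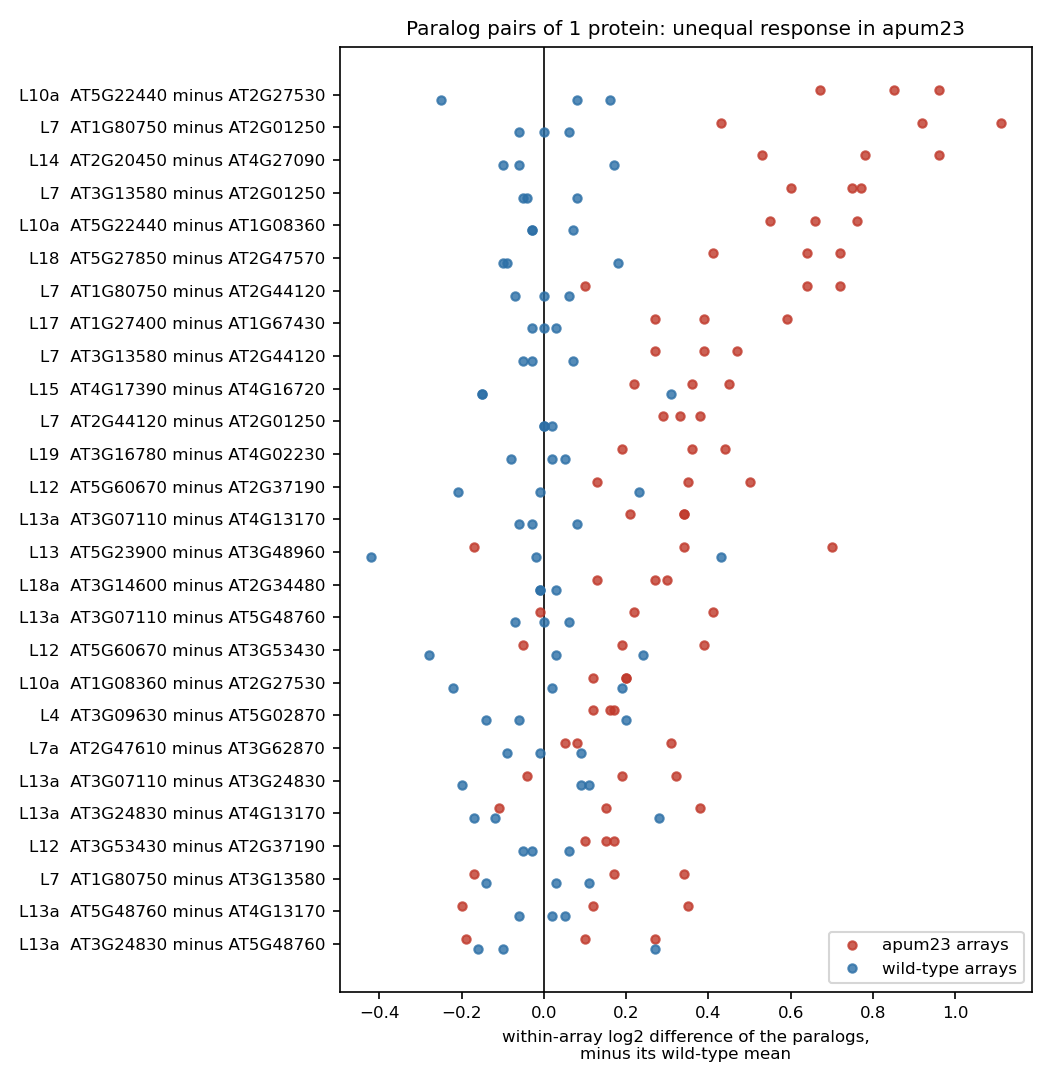
Within-array log2 difference of 2 paralogs, stronger minus weaker responder, after subtraction of its wild-type mean (horizontal axis, log2), for 27 pairs ordered by the difference in response. The 3 apum23 arrays are drawn above the 3 wild-type arrays in each row, and the top 5 pairs differ by 0.66 to 0.83. The pairs with AT2G47570 (L18) and AT3G48960 (L13) include a gene at the floor of the arrays.

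The calls are given here by probe set brightness, as a description with no test. Brightness depends on the probes as well as the transcript and is used only to sort probe sets, and the wild-type mean used for sorting also enters the fold change. Of 8 genes with a wild-type mean of 8 to 10, 6 rose, with a median log2 fold change of 0.94, and of 23 genes at 10 to 12, 6 rose, with a median of 0.59. AT1G80750, the only gene between 6 and 8, rose, and the 3 genes under 6 did not pass. Over all probe sets in the bins 8 to 10 and 10 to 12, the shares called higher were 5.80% and 4.92%, and the medians -0.02 and -0.05. Across the 35 genes, which share the same 6 arrays, the log2 fold change and the wild-type mean had a Pearson r of 0.13 and a Spearman rho of -0.27. Both values include the 3 genes under 6, which lie near the floor and had a median log2 fold change of 0.17. A smaller response of very bright probe sets to the same change in transcript was not tested.

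The other large-subunit proteins, L21 to L39, had 35 measured genes of 60 on the list. Of these, 20 rose, 0 fell and 15 did not pass, where 5.31% of all probe sets were called higher. Their median log2 fold change was 0.76. With limma's unadjusted p under 0.05, 24 were higher and 0 lower, where 11.2% of all probe sets were higher. Quantile-normalized values gave 29 that rose, 0 that fell and a median of 0.70, where 9.69% of all probe sets were called higher. AT2G32220 of L27 had the largest change, 7.38 in apum23 and 5.88 in wild type on average (1.51, adjusted p = 4e-09), followed by AT1G15250 of L37 (1.23). The difference in counts between the L3 to L19 genes and these was not tested. Without apum23 replicate 2 or 3 their count was 8 or 9, and that of the L3 to L19 genes was 10 or 7.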

How the data were processed

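The deposited table holds log2 probe set intensities of 6 ATH1 arrays, and per the submitters' processing notes the authors used RMA and limma, versions not given in the sources used here. Of 22810 probe sets, 64 controls were left out and 22746 tested as deposited. Probe sets were named through the platform annotation, keeping those with 1 gene (13513), of which 13436 matched a gene of the RefSeq table (TAIR10.1). The brightest probe set over the 6 arrays stood for a locus.

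The comparison used limma 3.58.1 under R 4.3.3 (lmFit and eBayes, two-sided, no block). P-values were adjusted by Benjamini-Hochberg across the whole table, and 0.05 was the limit for a call. Nothing says how plants were pooled, so p-values refer only to the spread between these samples, which may be technical. The number of arrays limits the precision. On the deposited values that spread is pooled over all probe sets, as the shared standard error of 0.22 shows, and is not the spread of the single gene. Paralogs were compared by within-array differences with an exact permutation test.

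Every listed locus with its own probe set is named, and of the L21 to L39 list the 2 largest changes. The members and lists were chosen with earlier results of these data known. The scripts were tested on simulated data, with a noise set in advance. On the deposited scale the fit recovered 1.47% of simulated log2 changes of 0.5 and 56.1% of those of 1. After quantile normalization it recovered 70.6% and 100%. A gene that did not pass on the deposited values can therefore still have changed.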

Additional observations from a re-analysis of the deposited data

How the results depend on the processing

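The count of large-subunit genes called, 13 as deposited, was 26 under quantile normalization, 25 under quantile normalization minus wild-type replicate 1 (chosen after seeing the data), 22 with the replicate number as a block, and 0 when apum23 replicate 1 stood alone for the mutant. Where apum23 replicate 1 stood alone for the mutant, only wild type supplies the spread, and the lone array is assumed to vary like it. In that fit 33 of 35 log2 fold changes were above 0, where 35.7% of all probe sets were. Leaving out each array gave 7 to 17 calls, the lowest without apum23 replicate 3, where 2.47% to 7.47% of all probe sets were called higher. The median of the 35 genes stayed positive in these fits, at 0.48 to 0.68 with single arrays removed. Called L21 to L39 genes, 20 as deposited, numbered 13 at an adjusted p under 0.01, 1 for apum23 replicate 1 alone, and 8 to 22 with single arrays removed. All probe sets called, 1522 as deposited, came to 4481 under quantile normalization, 3717 under it minus wild-type replicate 1, 2997 with median centring, 2604 with the replicate block, 916 at an adjusted p under 0.01, 895 with 1-gene probe sets only (fewer tested), 253 for apum23 replicate 1 alone, and 852 to 1842 with single arrays removed. The 6 paralog pairs past 1.5-fold became 0 at 2-fold, since the widest pair, in L10a, differed by 1.78-fold. They became 5 when pairs with a gene at the floor were left out. The cause of the other shifts was not tested.

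AT2G47570, at the floor of the arrays, changed sign with no call: -0.11 under quantile normalization, -0.12 under it minus wild-type replicate 1, -0.17 with median centring, -0.13 for apum23 replicate 1 alone, and -0.07 to 0.07 with single arrays removed. AT3G48960 was at 0 with median centring, and AT2G01250 at -0.01 when apum23 replicate 1 stood alone. Between arrays with the same replicate number, deviations from the group means had correlations of -0.29, 0.11 and 0.16. By this measure 2 of 6 arrays matched their own number best. A shift of a whole array does not enter these correlations, so they cannot show whether the numbers pair samples. Array medians rose with the number in both genotypes, at 5.7, 5.75 and 6.1 in apum23 and 5.34, 5.77 and 5.94 in wild type. Whether samples of 1 number share such a shift was not tested. The replicate block added 9 calls among the 35 genes and removed 0. The 6 paralog pairs past 1.5-fold have the same sign in every numbered pair by construction, which tests nothing about them.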
